A study of Mus musculus with 48 samples.

Results

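The late phase of mRNA decay was followed in a wild-type mouse fibroblast line as the change in level between 60 and 120 min after actinomycin D. The change was read from 10 of the 48 arrays of the series, 5 taken at 60 min and 5 at 120 min, paired by the number of the experiment. The spread used to test it came from all 25 WT arrays. All 45101 probe sets of each array were considered, except 64 control probe sets, and 27500 that exceeded the array median on at least 4 arrays were tested. They stood for 13018 genes. Of most interest were transcripts that fell moderately or late, as opposed to those already near background by 60 min.

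The wild-type (WT) line and the line labelled TTP KO came from littermate E14.5 embryos, from TTP +/- parents of strain 129/B6, with head and organs removed. There was 1 line of each genotype, so genotype and line cannot be told apart. Before the drug, all cells spent 16 h in 0.5% serum and then 90 min in 10% serum, so that every group, the 0 min group included, was serum-stimulated. Arrays were made at 0, 30, 60, 90 and 120 min of actinomycin D in 5 experiments on 5 days, each RNA coming from 3 pooled 100 mm dishes. WT had 5 arrays at each time, and KO had 4 at 0 and 60 min and 5 at the others. The dose of actinomycin D was 0.5 µg/ml by the sample labels and 5 µg/ml by the series text, a conflict that could not be settled here. Serum-deprived cells were not analysed here.

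Actinomycin D binds DNA and stops RNA polymerases, so that the fall of an mRNA after the drug is used as a measure of its degradation. Serum switches on immediate-early genes, whose mRNAs are usually short-lived because AU-rich elements in their tails recruit decay enzymes. Tristetraprolin (TTP, encoded by Zfp36) is a zinc-finger protein that binds such elements and brings in the deadenylase that removes the poly(A) tail. Long-lived mRNAs for ribosomal proteins, metabolic enzymes and matrix proteins are the usual counterpart.

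Values were the deposited log2 signals, whose lowest 5% lay at or under 8.13 on every array; this level was used as the floor. A change of -1 over the hour is a halving of the signal, and the halving time given for a gene is 60 min divided by the size of its late change. No background was removed here, so a fall is understated near the floor. Total RNA per cell was not measured, and fewer cells and less RNA per cell cannot be told apart. The arrays had medians between 8.47 and 8.56. The WT array at 120 min of experiment 1 had the smallest spread of all 48 arrays, with a standard deviation of 0.71 and a 5th percentile of 8.13; the other 9 arrays compared had standard deviations between 0.75 and 0.79. Counts are therefore also given without it. The fibroblast matrix and stroma list was strong, with 26 of 28 measured genes above 9. Of other markers, 0 of 5 epithelial, 0 of 4 endothelial and 1 of 6 macrophage and blood genes were above 9. So were 2 of 8 skeletal and cardiac muscle, 1 of 8 neural and 1 of 5 cartilage and bone genes. The Zfp36 probe set read a mean of 9.86 in WT and 9.51 in KO at 0 min. It therefore did not check the deletion; its position in the targeted gene is unknown here.

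Between 60 and 120 min, 2415 probe sets fell in WT, which was 8.78% of those tested, and 525 rose, 1.91% (limma with the experiment as a block, Benjamini-Hochberg adjusted p under 0.05 over 27500 probe sets). The falls were mostly shallow on the signals as deposited, from which no background was removed. On that scale 27 probe sets, of 19 genes, halved or more within the hour. Another 213 fell by between 0.5 and 1 in log2 units, and 2175 fell by less. The brightest probe sets of Tob1 and Cdt1 are not among the 27. They changed by -1.41 and -1.79 after an estimated background was subtracted. These are examples only. The brightest probe sets of Irx3, Spsb1, Nr4a1 and Nmd3, also not among the 27, changed by -1.79, -1.63, -1.42 and -1.25 on that scale. The number that halved therefore depends on the background left in the signals. Among the 2415, 2341 were lower at 120 min in 5 of 5 experiments, as were 14.7% of all tested probe sets. In 1314 of the 2415 all arrays at 120 min lay under all arrays at 60 min, against 5.32% of all tested probe sets. The calls were made on these same arrays, so neither count is separate support. Without the WT array at 120 min of experiment 1, 1895 fell, 1857 of them among the 2415. The balance of falls and rises moved with the scaling of the arrays. Falls made up 82.1% of the calls with the deposited scaling, 67.3% after quantile normalisation (2561 fell and 1243 rose) and 96.3% when each array was centred on ribosomal protein, glycolysis and respiratory chain genes (4025 fell and 155 rose).

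The late falls had different histories. The changes of the first hour (0 to 60 min) and the second (60 to 120 min) use the same arrays at 60 min, so the hours were compared by a contrast in the fit and not by a correlation. In 224 probe sets (0.815% of those tested, 175 genes) the fall of the second hour was larger than that of the first hour by a test of the difference itself; these are called delayed. In 81 (0.295%) it was smaller, and these are called slowing. In 951 (3.46%) both hours fell past the threshold and their difference did not pass, which does not show that the hours were equal; these are called steady. The other 1159 fell late with neither a fall in the first hour nor a difference between the hours past the threshold. These classes are less firm than the falls themselves: without experiment 1, 2, 3, 4 or 5 in turn there were 117, 155, 110, 91 and 107 delayed and 47, 63, 72, 36 and 37 slowing probe sets, and without the replicate block 54 and 21.

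**Figure D1:**
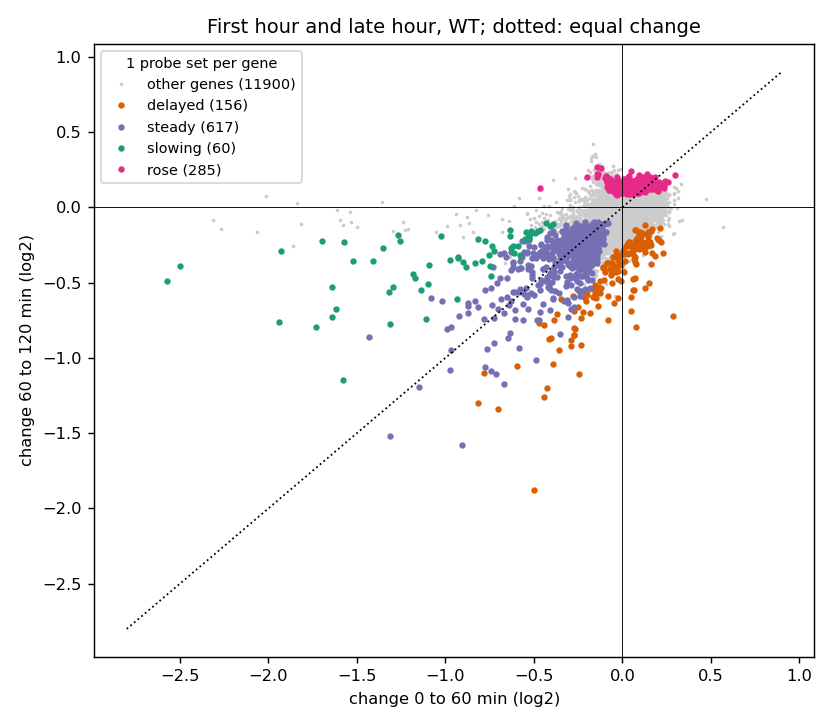
Each point is 1 of 13018 genes, with its change from 0 to 60 min on the x axis and from 60 to 120 min on the y axis, both in log2 units in WT; colours mark the 156 delayed, 617 steady and 60 slowing genes and the 285 that rose. Points under the dotted line had a lower change in the second hour than in the first, whether or not they fell. Btg1, at a late change of -1.88, is the lowest point, and the slowing genes spread to the left along shallow late changes.

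The mRNA that fell furthest was Btg1, which encodes an antiproliferative protein that binds the CCR4-NOT deadenylase. Its log2 signal in experiments 1 to 5 was 10.90, 10.97, 10.74, 10.62 and 10.63 at 60 min and 8.78, 9.04, 8.80, 8.96 and 8.89 at 120 min. The groups lay far apart, with every array at 120 min well under every array at 60 min. The late change was -1.88 ± 0.06 (SE, n = 5, adjusted p = 1.79e-14, limma), a halving time of 31.9 min. In the first hour Btg1 had changed by only -0.50, so its fall was delayed, with a difference between the hours of -1.38 ± 0.11 (SE, n = 5, adjusted p = 3.58e-08, limma). After an estimated background was subtracted, the halving time was 21 min. The rule names the brightest probe set of a gene; of the 3 probe sets of Btg1 tested, 2 fell and the dimmest did not pass.

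Transcription factors of the immediate-early response followed. Cebpb, a leucine-zipper factor of the acute-phase response, read 11.13, 11.28, 11.32, 10.53 and 10.56 at 60 min and 9.25, 9.40, 9.45, 9.43 and 9.37 at 120 min in experiments 1 to 5. The spread that separated the experiments at 60 min had closed by 120 min, and the groups did not overlap. Its late change was -1.58 ± 0.10 (SE, n = 5, adjusted p = 2.92e-10, limma), after -0.91 in the first hour. Fosl1, the AP-1 subunit Fra-1, was delayed: it changed by -0.44 in the first hour and -1.26 ± 0.07 in the second. Klf4, Klf6 and Klf9, Krüppel-like zinc-finger factors, changed late by -1.02, -0.94 and -0.95 and were steady, as was Cebpb.

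The list of immediate-early transcription factors had 24 of 35 measured genes falling late and 0 rising, with a median late change of -0.36; over all genes with 1 probe set each, 1546 of 13018 fell, 11.9%, 285 rose, 2.19%, and the median was 0.01. Most had begun to fall earlier, since 31 of 35 fell in the first hour. By class, 10 were slowing, 10 steady and 1, Fosl1, delayed. Junb, an AP-1 subunit, changed by -1.73 in the first hour and -0.80 in the second. Nr4a1, an orphan nuclear receptor, changed by -1.94 and then -0.76, and Myc, the growth-promoting factor, by -1.93 and then -0.29. Fos, Egr1, Jun and Ier2, which are induced within minutes of serum, changed late by -0.15, -0.15, -0.26 and -0.08 and did not pass the threshold.

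Among the 16 genes with the largest late fall that fell in 5 of 5 experiments, halving times ran from 31.9 to 56.5 min. Of these, 7 were delayed, 8 steady and 1 slowing. In 16 of 16 the arrays at 60 and 120 min did not overlap. The genes were picked for large falls on these same arrays, so this describes the choice and is not separate support. All 16 kept an adjusted p under 0.05 in each alternative processing tried. Ccn1, a secreted matricellular protein also called Cyr61, changed by -1.52 ± 0.13 on its brightest probe set; 2 of its 4 tested probe sets fell, and both others had fallen in the first hour and did not pass in the second. Pnrc1, a nuclear receptor coactivator, changed by -1.17, Slc38a2, a neutral amino acid transporter, by -1.10, Sgk1, a serum- and glucocorticoid-regulated kinase, by -1.08, and Bcar1, the adhesion scaffold p130Cas, by -1.11. Of the probe sets of Slc38a2, 1 of 3 tested fell. Zfp622, a zinc-finger protein, changed by -1.08 ± 0.06, and was with Smad1 the only one of the 16 whose change differed between WT and KO past the threshold. Slc38a2 read 10.24, 10.37, 10.22, 10.48 and 10.46 at 60 min and 9.05, 9.43, 9.04, 9.30 and 9.45 at 120 min in experiments 1 to 5. The groups did not overlap, and each experiment fell by a like amount.

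Mcl1, an antiapoptotic member of the Bcl2 family with a short-lived protein, was steady. Its signal in experiments 1 to 5 was 10.54, 10.84, 10.49, 10.18 and 10.19 at 60 min and 9.13, 9.67, 9.38, 9.37 and 9.38 at 120 min. Experiment 2 was the highest at both times, and the groups did not overlap. The late change was -1.06 ± 0.07 (SE, n = 5, adjusted p = 1.59e-10, limma), after -0.77 in the first hour, and 6 of 6 probe sets fell. In the list of survival genes of the Bcl2 and Birc families 3 of 17 fell (17.6%, against 11.9% of all genes); the others were Bcl2l1, at -0.15, and Birc2, at -0.14. Without experiment 2, 4 or 5, 1 of the list fell.

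**Figure D2:**
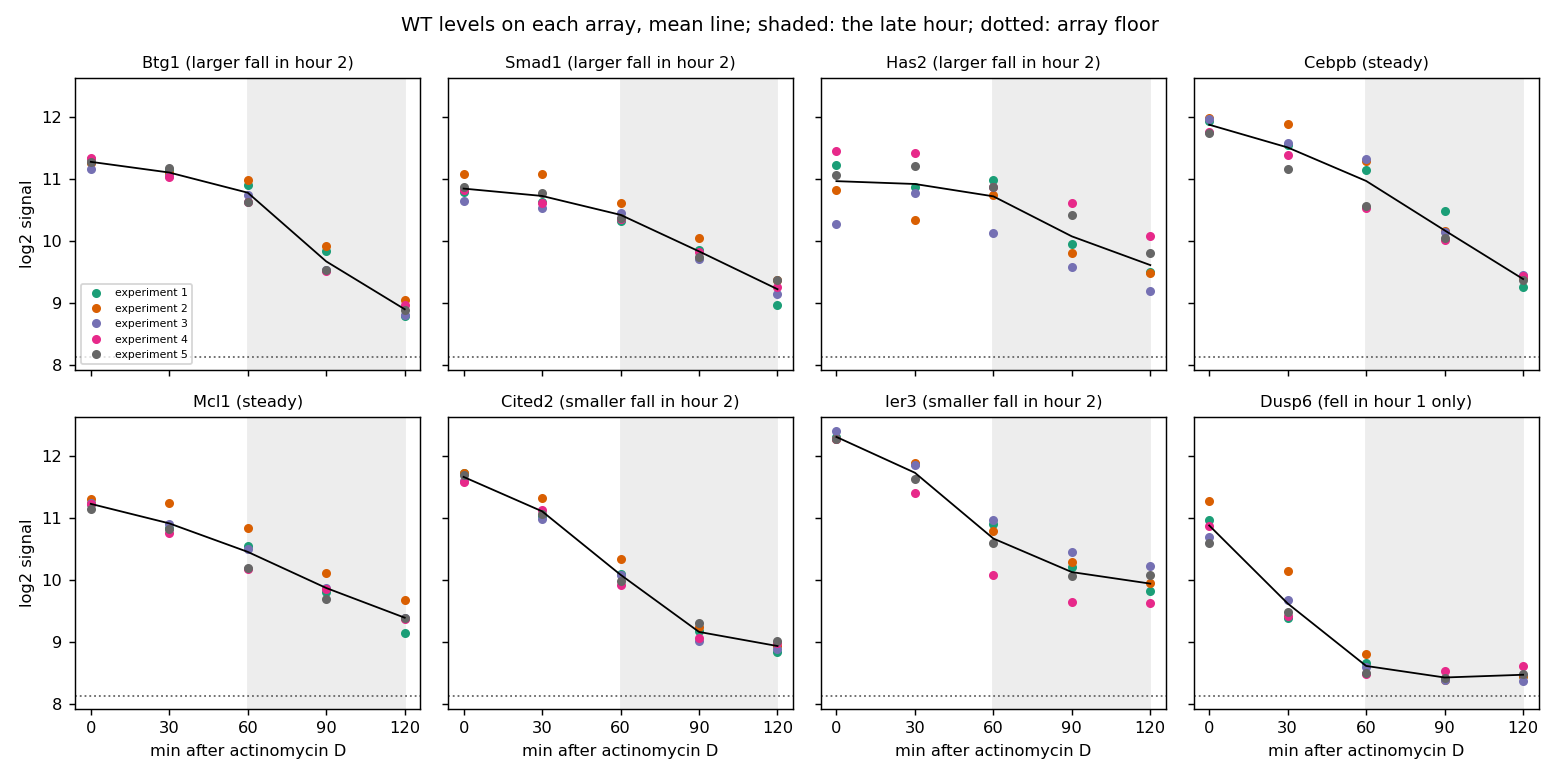
Log2 signal (y axis) against minutes of actinomycin D (x axis) for 8 genes in WT, 1 point per array coloured by experiment, with the line through the mean; the late hour is shaded and the floor of 8.13 dotted. Btg1, Smad1 and Has2 bend downwards after 60 min, Cebpb and Mcl1 fall in both hours, Ier3 flattens towards 120 min, and Dusp6, at a mean of 8.61 by 60 min, changed late by -0.14, which did not pass the threshold.

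The delayed class had a median change of -0.01 in the first hour and -0.40 in the second, a contrast that its definition requires. Smad1, a transducer of bone morphogenetic protein signals, read 10.79, 11.08, 10.64, 10.82 and 10.87 at 0 min in experiments 1 to 5. It read 10.31, 10.61, 10.44, 10.35 and 10.36 at 60 min and 8.96, 9.36, 9.13, 9.26 and 9.37 at 120 min. The arrays at 60 min were just under those at 0 min, and those at 120 min were far lower. Its changes were -0.42 in the first hour and -1.20 ± 0.06 in the second, with a difference of -0.77 ± 0.10 (SE, n = 5, adjusted p = 4.93e-05, limma). Has2, which makes hyaluronan, read 10.97, 10.73, 10.13, 10.87 and 10.87 at 60 min and 9.49, 9.47, 9.19, 10.08 and 9.80 at 120 min. Experiment 3 was the lowest at both times, and the groups were separated by a narrow margin only. Has2 changed by -0.24 in the first hour (adjusted p = 0.169) and -1.11 ± 0.11 in the second (adjusted p = 3.72e-07, limma). Its difference between the hours, -0.86 ± 0.20 (adjusted p = 0.0194, limma), did not pass without the replicate block or without experiment 1, 2 or 5.

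Of the 10 genes with the strongest delay, Arf6, a small GTPase of membrane traffic, changed by -0.24 and then -0.91. Brix1, an assembly factor of the large ribosomal subunit, read 10.66, 10.72, 10.46, 10.65 and 10.70 at 60 min and 9.82, 9.97, 9.82, 9.84 and 10.01 at 120 min in experiments 1 to 5. These did not overlap. It changed by -0.08 and then -0.75. Abtb2, S1pr3 (a receptor for sphingosine 1-phosphate), Luc7l2 (a splicing factor) and Ahr (the aryl hydrocarbon receptor) had first-hour changes of 0.08, 0.05, 0.29 and 0.13, none of which passed the threshold. Their late changes were -0.79, -0.69, -0.72 and -0.53, and all passed. Of the 7 probe sets of Luc7l2, however, only 2 fell, and for Ahr 1 of 2. Xbp1, a factor of the unfolded protein response named after its values were seen, changed by -0.39 and then -1.04. Across the delayed class, 135 of 224 probe sets had no first-hour change past the threshold, 62 fell in the first hour and 27 rose in it. Arntl, the clock factor Bmal1, is one of those that rose and then fell, by 0.14 and -0.25. The difference between the hours held in each alternative tried for Btg1, Fosl1, Smad1 and Arf6, and was lost in at least 1 for the other 6.

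Feedback inhibitors of receptor and MAP kinase signalling were spread over the classes. Of 24 measured, 13 fell late, against 11.9% of all genes. Among these, 5 were delayed, 3 steady and 4 slowing. The delayed members were Errfi1, which restrains the EGF receptor, Socs5, Spred2, Spred1 and the phosphatase Dusp14. Errfi1 was among the brightest genes that fell, at 12.12, 12.33, 12.20, 12.03 and 12.09 at 60 min and 10.79, 11.41, 11.02, 11.02 and 11.25 at 120 min in experiments 1 to 5. Its arrays of both times were well separated. It changed by -0.60 in the first hour and -1.06 ± 0.05 in the second, and Spred2, an inhibitor of Ras signalling, by -0.14 and -0.65. By contrast, the MAP kinase phosphatases Dusp5 and Dusp10 were slowing, at -2.57 then -0.49 and -1.10 then -0.51. Dusp1, Dusp2 and Dusp6 fell in the first hour and not past the threshold in the second. Dusp6, named after its values were seen, read 8.66, 8.80, 8.60, 8.48 and 8.49 at 60 min and 8.44, 8.44, 8.36, 8.61 and 8.48 at 120 min in experiments 1 to 5. These arrays overlapped, and the late change of -0.14 ± 0.10 (adjusted p = 0.378, limma) followed -2.27 in the first hour.

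Antiproliferative and p53-linked genes contributed 12 falls of 24, with 0 rising and a median of -0.17. Over all genes 11.9% fell and 2.19% rose. Beside Btg1, they included its relatives Btg2, at -0.60, Tob1, at -0.74, and Tob2, at -0.60. Phlda1, a pleckstrin-homology protein, read 11.27, 11.56, 11.47, 11.15 and 11.31 at 60 min and 9.87, 10.18, 10.05, 10.00 and 10.18 at 120 min in experiments 1 to 5. The groups were wide apart. Phlda1 was delayed, changing by -0.82 and then -1.30 ± 0.06, and Plk2, a Polo-like kinase, was steady at -1.43 and -0.86. Cdkn1a, the cyclin-dependent kinase inhibitor p21, changed late by -0.34 ± 0.06 (adjusted p = 3.05e-04, limma). Gadd45b and Gadd45g, stress sensors, changed by -1.36 and -2.31 in the first hour and by 0.03 and -0.08 in the second, neither passing. Gadd45g levelled off at a mean of 9.17 at 60 min and 9.09 at 120 min, well above the floor.

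In the NF-kappaB list 12 of 17 fell. The share over all genes, to be held beside each list count in this paragraph, was 11.9%. Nfkbia, the inhibitor IkB-alpha, read 10.06, 9.98, 10.03, 9.94 and 9.83 at 60 min and 9.10, 9.35, 9.37, 9.28 and 9.36 at 120 min in experiments 1 to 5, without overlap. It was slowing, with -1.62 in the first hour and -0.68 ± 0.07 in the second. The subunits Rela and Rel changed by -0.40 and -0.32. BMP and TGF-beta signalling had 10 of 28 falling, and besides Smad1 the co-repressors Skil and Tgif1 changed by -0.90 and -0.72. Smad7, the inhibitory Smad, changed by -1.21 in the first hour and -0.14 in the second and did not pass. The list of C2H2 zinc-finger and other rare transcription factors had 26 of 48 falling, 15 of them steady, and ubiquitin ligases and adaptors 15 of 37, led by Kbtbd2 at -0.75 and Spsb1 at -0.73. Of the cytokines and growth factors 11 of 33 fell, with Fgf7, a fibroblast growth factor for epithelium, at -0.59 and Vegfa, the angiogenic factor, at -0.37; without experiment 1, 6 fell. Decay factors and AU-rich element binders had 10 of 38 falling, among them Zfp36l2, a relative of TTP, at -0.84, and the endonuclease Zc3h12a at -0.42.

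Circadian clock genes had 7 of 16 falling, led by Csnk1d at -0.42, a kinase that marks clock proteins for turnover; without experiment 1, 4 fell. Targets of serum response factor and the contractile cytoskeleton had 6 of 22 falling, with Ccn1, Fhl2 at -0.63 and Ccn2 at -0.56, and 2 rising, Tagln and Tpm2. The counts were 3 of 14 for the Notch pathway, 5 of 24 for receptor tyrosine kinases, 6 of 30 for splicing factors, 5 of 25 for heat shock proteins and chaperones, 6 of 31 for cell cycle genes, 2 of 11 for the Myc and Max network and 3 of 18 for cholesterol genes, against 11.9% of all genes. Without experiment 1, 2 or 3, 3 splicing factors fell, and without experiment 1, 1 gene of the Myc and Max network. Maml1, a Notch coactivator, changed by -0.54, Egfr by -0.34, Dnajb4, a chaperone of the Hsp40 family, by -0.60, the replication licensing factor Cdt1 by -0.46 and Sqle, of cholesterol synthesis, by -0.60. Of the D-type cyclins with Cdk4 and Cdk6, 0 of 8 fell (limma; 1 at an unadjusted p under 0.05, and at most 1 under any alternative).

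The housekeeping lists held few falls, where 11.9% of all genes fell. The lists of 4 to 19 genes named below are too short for a low count to be read against that share. None of 36 ribosomal proteins and none of 37 respiratory chain subunits fell (limma), at an adjusted or an unadjusted p under 0.05; 1 and 5 rose, and 5 and 12 did with an unadjusted p under 0.05. Interferon-stimulated and MHC class I genes had 1 of 19 falling, Irgm1. Of glycolysis, proteasome and fibroblast matrix genes, 1 of 15, 1 of 32 and 1 of 28 fell; the count for glycolysis was 0 without experiment 1, 4 or 5. Markers of other cell types had no member falling among 5 epithelial, 4 endothelial, 6 macrophage and blood, 8 muscle and 8 neural genes measured (limma; 1 macrophage and blood gene at an unadjusted p under 0.05), and 1 of 5 cartilage and bone genes, Sox9, fell, though not without experiment 4. Of the muscle genes, 2 of 8 rose, Des by 0.10 and Tnnt3 by 0.14, against 2.19% of all genes; the mean over the measured muscle markers ran from 8.72 to 8.76 at 60 min and from 8.76 to 8.84 at 120 min, and its part in other results was not tested.

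The rises were small. Among the 8 largest that rose in 5 of 5 experiments, Mrpl20, a mitochondrial ribosomal protein, changed by 0.24 ± 0.06 and Tmem120a by 0.21 ± 0.04. Eno4, at 0.27 ± 0.09, Gjb2 at 0.26 ± 0.08 and Hpca at 0.22 ± 0.07 had means between 8.40 and 8.56 at 60 min, around the array median. None of the 8 passed in each alternative tried.

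**Figure D3:**
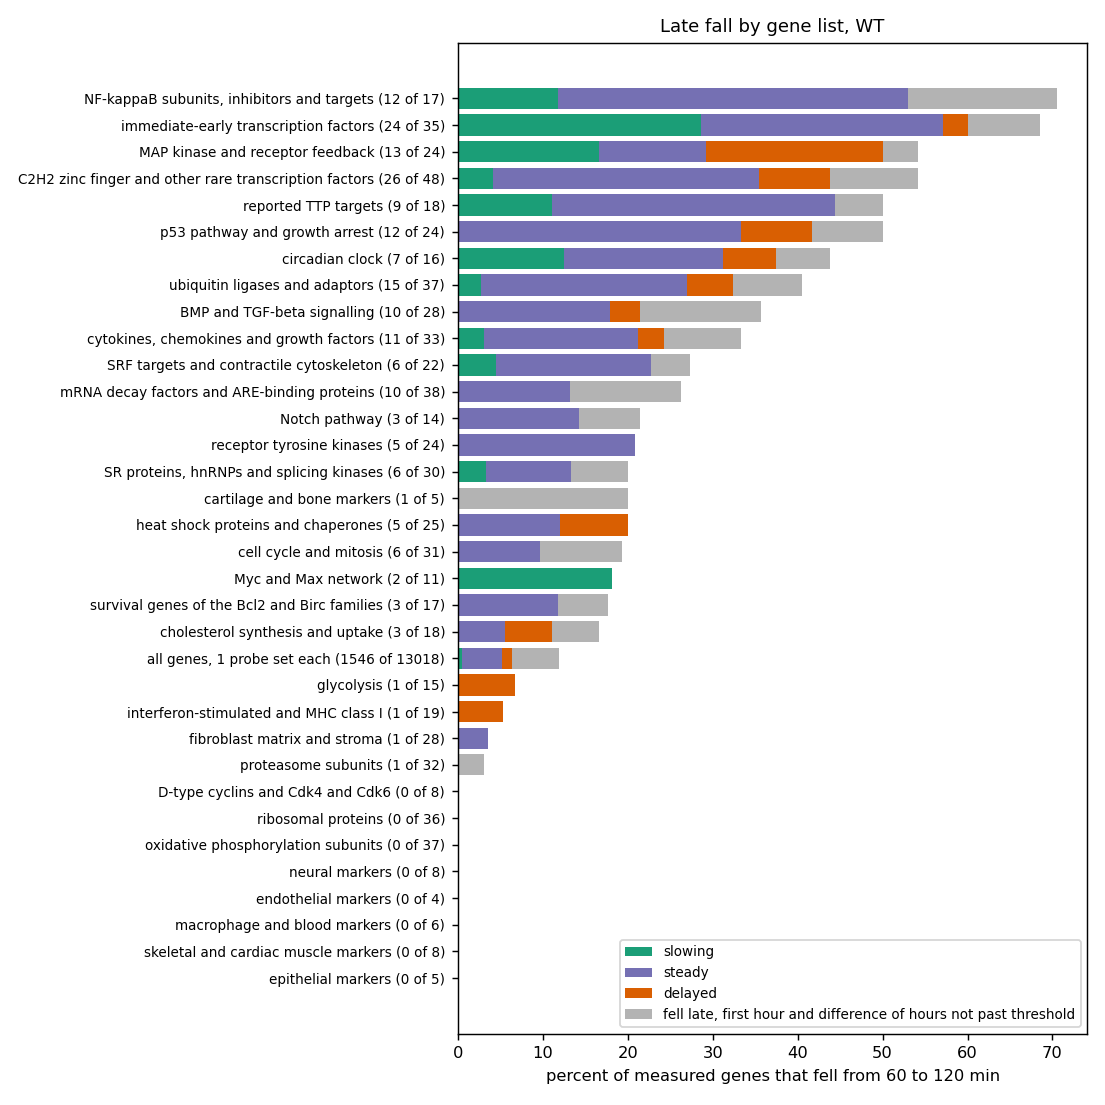
Share of the measured genes of the gene lists described here (x axis, percent) that fell from 60 to 120 min in WT, with the counts beside each name; colours split the falls into slowing, steady and delayed, and grey marks falls outside these classes. The regulatory lists reach 24 of 35 and 12 of 17, the bar for all genes stands at 1546 of 13018, and ribosomal protein and respiratory chain lists are at 0.

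At the other end were genes that fell in the first hour and did not pass in the second on the signals as deposited. Of 2340 probe sets that fell in the first hour (8.51% of those tested), 1094 fell in the second as well and 1243 did not pass in it. Among the 70 that at least halved in the first hour, 40 went on falling and 30, of 23 genes, did not pass. None of these 70 had a mean at or under the floor at 60 min, although several were near it. Zfp36, which encodes TTP, read 8.28, 8.40, 8.35, 8.23 and 8.18 at 60 min and 8.29, 8.15, 8.06, 8.17 and 8.19 at 120 min. The arrays of both times overlapped and lay close to the floor, and the late change was -0.11 ± 0.08 (adjusted p = 0.388, limma) after -1.58 in the first hour. With background subtracted it was -1.05 (adjusted p = 0.00723, limma) and passed.

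Slowing genes were still well above the floor in several cases. Ier3, a stress-response gene and reported TTP target, read 10.89, 10.79, 10.96, 10.08 and 10.60 at 60 min and 9.82, 9.94, 10.21, 9.62 and 10.08 at 120 min in experiments 1 to 5. Experiment 4 was the lowest at both times, and the groups overlapped, although each experiment fell. Its changes were -1.64 in the first hour and -0.73 ± 0.08 in the second, with a difference between the hours of 0.91 ± 0.15 (adjusted p = 5.92e-04, limma). Cited2, a coactivator of CBP and p300, changed by -1.58 and then -1.15 ± 0.06. Its slowing did not survive background subtraction, where the difference between the hours turned from 0.43 to -0.050. Myc, Nfkbia and Clk1 kept the difference in each alternative tried. The list of reported TTP targets had 9 of 18 falling late in WT, against 11.9% of all genes. With 1 experiment left out at a time, between 4 (without experiment 1) and 8 fell in WT. In KO 6 of the list fell, where 4.41% of all tested probe sets did. The counts of WT and KO come from different fits, so they are not like counts, and no line difference is read from them. Some genes of the list were reported from these lines, so the list is not independent evidence of its direction.

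The course within the late hour was read from the arrays at 90 min. These do not enter the change from 60 to 120 min, only the spread used to test it. In 239 of the 240 probe sets that fell late by 0.5 or more, the mean at 90 min lay between those at 60 and 120 min. The deviation of the 90 min mean from the midpoint of the others passed the threshold for 1 probe set of 27500, which lay below the midpoint (limma), and 1753 had an unadjusted p under 0.05. Btg1 changed by -1.11 from 60 to 90 min and -0.77 from 90 to 120 min, Cebpb by -0.80 and -0.78, and Cited2 by -0.92 and -0.23.

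Promoter sequences were set beside the classes, as a description of genes that share a course. RefSeq promoters (build GRCm38.p6, from 250 bases before to 50 after the start) were matched by symbol for 10474 of 13018 tested genes. Both strands were searched for the cyclic AMP response element (CRE, TGACGTCA), the AP-1 motif TGANTCA and the CArG box of serum response factor (any probe set of a gene could place it in a class, so a gene may count in more than 1). No AP-1 match fits inside a CRE. The CArG box lay in 6 of 43 genes that at least halved in the first hour (14%) and in 4 of 61 slowing genes (6.56%). Dusp5, Filip1l and Mideas count in both of these groups. It lay in 15 of 638 steady (2.35%) and 0 of 135 delayed genes, against 1.68% of all tested. Among all genes that fell late the share was near that, at 26 of 1475 (1.76%), and 3 of 142 (2.11%) for falls of 0.5 or more. The CRE lay in 4 first-hour (9.3%), 4 slowing (6.56%), 39 steady (6.11%) and 1 delayed gene (0.741%), against 3.33% of all tested. Among genes that fell late it lay in 4.95%, and in 4.23% for falls of 0.5 or more. AP-1 motifs lay in 2 first-hour (4.65%), 1 slowing (1.64%), 31 steady (4.86%) and 8 delayed genes (5.93%), against 6.7% of all tested. Among genes that fell late they lay in 5.69%, and in 3.52% for falls of 0.5 or more. Over all 27025 genes with a RefSeq promoter the shares were 1.81% for CArG, 2.03% for CRE and 8.97% for AP-1. These shares are descriptions without a test, and a match is not a binding site. The following stretches show members of different classes, with the motif in capitals and 16 bases on either side, written along the gene's strand. The first 2 overlap and hold adjacent CArG boxes of Dusp5 (slowing), and are followed by Filip1l (slowing, CArG). Next are Zfp36 (CArG) and Dusp1 (CRE), which at least halved in the first hour. Their late changes did not pass on the signals as deposited. The last are Irf2bpl (steady, CRE) and Errfi1, the only delayed gene with a CRE, whose other probe set was steady.
Dusp5, chr19:53529047-53529088, plus strand: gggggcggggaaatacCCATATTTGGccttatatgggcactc
Dusp5, chr19:53529057-53529098, plus strand: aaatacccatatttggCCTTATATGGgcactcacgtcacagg
Filip1l, chr16:57549164-57549205, plus strand: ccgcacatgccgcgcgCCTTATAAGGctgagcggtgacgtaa
Zfp36, chr7:28379261-28379302, minus strand: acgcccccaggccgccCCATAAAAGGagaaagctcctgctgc
Dusp1, chr17:26508592-26508631, minus strand: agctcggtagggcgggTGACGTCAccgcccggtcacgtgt
Irf2bpl, chr12:86884821-86884860, minus strand: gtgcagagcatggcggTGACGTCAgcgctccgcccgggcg
Errfi1, chr4:150855003-150855042, plus strand: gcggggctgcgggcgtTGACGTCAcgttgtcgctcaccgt

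The deeper late falls of WT were found in the KO line too. Of the 2415 probe sets that fell late in WT, 998 fell past the threshold in KO (41.3%, and 82.3% of the 1212 that fell in KO), where 4.41% of all tested did so. The changes of the lines share no array, but they share the days. The KO calls come from the blocked fit of all 48 arrays, whose estimate of the spread also uses the WT arrays. The calls of the lines are therefore not fully separate. In that fit experiment 4 has no KO array at 60 min. By the fit of all 48 arrays, 1758 probe sets rose in KO (6.39%) and 1296 in WT, while 1212 fell in KO and 2987 in WT. The 525 rises and 2415 falls of WT come from the fit of the WT arrays alone, so they are not like counts. Of the 240 that fell by 0.5 or more in WT, 226 fell in KO, and of the 27 that halved, 27 did. Btg1 changed by -1.71 ± 0.06 in KO. In the delayed class, 153 of 224 fell late in KO.

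The lines differed in the late change itself for 233 probe sets that changed more negatively in WT (0.847% of those tested) and 34 that changed more negatively in KO (0.124%; limma, WT minus KO, adjusted p under 0.05). Without experiment 1, 2, 3, 4 or 5 in turn, 18, 65, 157, 47 and 61 changed more negatively in WT and 13, 15, 26, 16 and 16 in KO. Without the block the counts were 1 and 6, and without the WT array at 120 min of experiment 1 they were 74 and 19. Irx3, an Iroquois homeobox factor, read 9.62, 9.69, 9.59, 9.18 and 8.99 at 60 min and 8.56, 8.71, 8.62, 8.53 and 8.59 at 120 min in WT. In KO it read 8.30, 8.26, 8.28 and 8.24 at 60 min, where experiment 4 has no array, and 8.29, 8.20, 8.22, 8.23 and 8.17 at 120 min. All WT arrays at 120 min were under those at 60 min, whereas the KO arrays overlapped and lay close to the floor at both times, so that little of a fall could have been seen there. The changes were -0.81 ± 0.07 in WT and -0.04 ± 0.06 in KO, a difference of -0.77 ± 0.09 (SE, adjusted p = 9.78e-07, limma), which also passed without the block. Hivep3, a zinc-finger factor, was likewise low in KO, with means of 8.40 at 60 min and 8.40 at 120 min against 10.81 and 10.35 in WT, and its difference was -0.48. Smad1 was well above the floor in both lines. It read 10.84, 10.97, 11.03 and 10.80 at 60 min and 10.35, 10.37, 10.11, 10.19 and 10.15 at 120 min in KO, where the groups did not overlap either. Its late change in KO was -0.65 ± 0.06, and the difference between the lines was -0.55 ± 0.08 (adjusted p = 3.20e-04, limma; 0.255 without the block). Elf1, an ETS factor, changed by -0.70 in WT and -0.20 in KO, and Uvrag, an autophagy gene, by -0.59 and -0.14. These differences did not pass without the block, nor did those of Hivep3 and Socs5. Leaving out 1 experiment at a time kept the call for Irx3, Smad1, Elf1, Uvrag, Dact1 and Hic1. It was lost for Hivep3 (without experiment 1 or 4), Socs5 (1, 2 or 4), Nr4a1 (1), Dusp1 (1, 2, 4 or 5) and Nfkbiz (1, 2, 3 or 4).

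In the other direction, Dact1, an antagonist of Wnt signalling, changed by -0.10 in WT and -0.91 ± 0.04 in KO, a difference of 0.81 ± 0.06 (adjusted p = 2.94e-12, limma). Its WT signal was near the floor, at a mean of 8.35 at 60 min, against 9.78 in KO, and the difference did not pass once background was subtracted. Hic1 was near the floor in WT as well, at 8.35. Chac1 reached 8.03 in WT at 120 min, under the floor, so its WT fall has only a lower bound, and neither a slowing nor a direction of its line difference is read from it. Nr4a1 changed by -0.76 in WT and -1.57 ± 0.11 in KO, starting the hour at means of 9.59 and 10.88. Dusp1, Nfkbiz and Hic1 differed by 0.43, 0.40 and 0.33. Without the block the differences of Nr4a1 (adjusted p = 0.38, limma), Dusp1 (0.595) and Nfkbiz (0.504) did not pass, while those of Dact1 and Hic1 did. Of the TTP-linked genes, Ier3 changed by -0.49 ± 0.07 in KO. WT minus KO was -0.24, which missed the threshold (limma, adjusted p = 0.203).

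**Figure D4:**
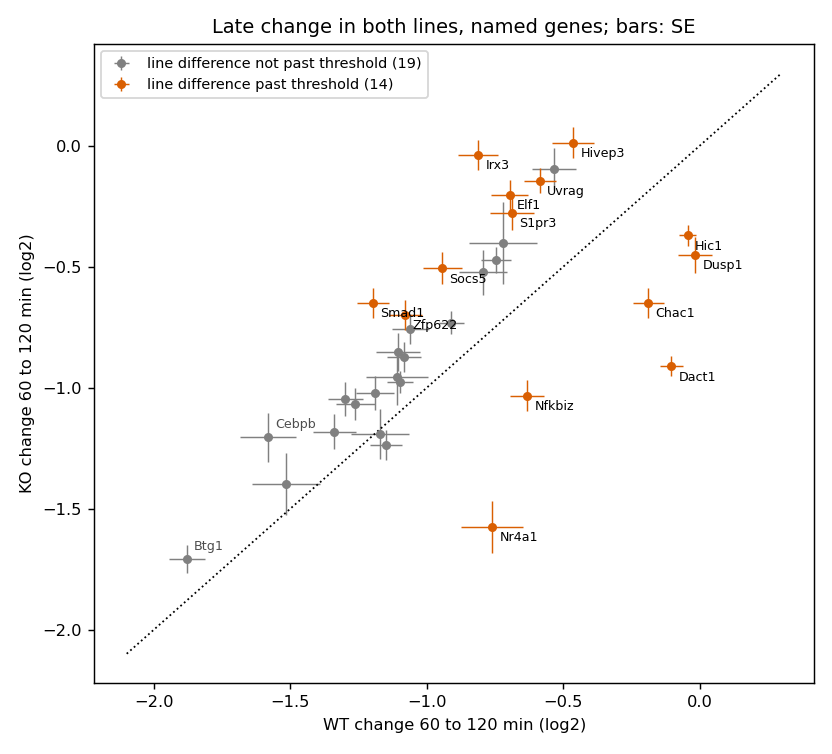
Change from 60 to 120 min in WT (x axis) and KO (y axis), in log2 units with SE bars, for the 33 genes named for the largest late fall, the strongest delay or the line difference; orange marks the 14 whose line difference passed the threshold. Most grey points lie a little above the dotted line of equal change, Irx3 and Hivep3 stand above it near 0 in KO, and Nr4a1 and Dact1 stand below it.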

How the data were processed

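RNA of each sample was measured on an Affymetrix Mouse Genome 430 2.0 array. The authors' deposited values were log2 signals: per the labels' protocols and the submitters' processing notes they came from GeneChip Operating Software 1.2.0.037, and the normalisation and log base, not given in the sources used here, were read from the values. The deposited series table has 48 arrays; no genome was used. Of 27500 tested probe sets, 23140 had 1 symbol, 681 several and 3679 none in the platform's annotation.

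limma 3.58.1 in R 4.3.3 was fitted to the 25 WT arrays, with a mean for each time and the experiment as a block (trend and robust settings). The line difference and the KO changes used all 48 arrays with a block for each line and experiment. Counts of calls in WT and in KO therefore come from different fits unless stated. The method was tested on simulated data. Experiment numbers paired the arrays: the labels give the days, and deviations of the 60 and 120 min arrays of an experiment correlated at 0.66, 0.11, 0.68, 0.44 and 0.78. Whether dishes came from separate cultures beyond the day is not given, so p-values do not reach beyond experiments of 1 line. The block removes differences in level between experiments. The p-values therefore measure how far the changes over time vary from experiment to experiment.

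The floor was the highest 5th percentile of any array. Named genes were, with the brightest probe set of each gene, the 16 largest late falls and 8 largest rises seen in 5 of 5 experiments, the 10 strongest delays, the 8 largest steady falls, up to 6 genes at the floor by 60 min (0 qualified), 6 line differences each way, Zfp36 and Ier3, and up to 4 per gene list. Members and lists were chosen with earlier results of these data known; Dusp1, Dusp6, Gadd45g, Ier2, Nfkbia, Xbp1 and list members named without passing this rule were chosen after their values were seen. Alternatives were the block, the arrays in the fit, filters, quantile normalisation, centring on 88 stable genes, background subtraction, leaving out experiments, and 2 arrangements without arrays of narrow spread, added after seeing the data. The result of 1 gene list is not reported here.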

Additional observations from a re-analysis of the deposited data

Results flagged for a closer look

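Of 124 named genes, 2 had 1 experiment whose late change stood apart from the others; chance alone sets apart about 1 in 20 groups. Cdk1, the mitotic kinase, changed by -0.10 in experiment 5, against larger falls in the others, and Psmc6, a proteasome ATPase, by -0.33 in experiment 1. The WT array at 120 min of experiment 1 stood apart by its 5th percentile of 8.13, the highest of its group.

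The late change differed between the lines for 22 named genes by the test of the difference (limma, adjusted p under 0.05; log2, WT minus KO). It was more negative in WT for Smad1 (-0.55), Zfp622 (-0.38), S1pr3 (-0.41), Irx3 (-0.77), Elf1 (-0.49), Hivep3 (-0.48), Uvrag (-0.44), Socs5 (-0.44), Smad2 (-0.21), Spred2 (-0.30), Maml1 (-0.39), Jag1 (-0.35), Nr1d2 (-0.35), Dnajb4 (-0.36), Cdkn1a (-0.33) and Lonrf1 (-0.41). It was more negative in KO for Nr4a1 (0.81), Dact1 (0.81), Dusp1 (0.43), Nfkbiz (0.40) and Hic1 (0.33). For Chac1 the measured signals differed by 0.46, but its WT level at 120 min was under the floor, so this has no settled size or direction. Genotype and line cannot be told apart, and the part of the starting level at 60 min in these differences was not tested.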

How the results depend on the processing

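Direction held for the late change in each alternative run on the 16 largest falls, while counts moved. Of 101 named falls 32 lost the call in at least 1 alternative, and all 16 named rises did. Without the replicate block 1221 fell and 62 rose (54 delayed, 21 slowing, 466 steady, 0 off the midpoint). Rises numbered 913 with the 10 arrays alone, 1296 with all 48 arrays (432 delayed), 1243 after quantile normalisation, 155 with stable-gene centring (4025 fell, 2069 steady) and 258 with background subtracted (44 slowing). Leaving out each experiment gave 1680 to 2155 falls, 162 to 313 rises, 91 to 155 delayed, 36 to 72 slowing, 624 to 1018 steady, line differences of 18 to 157 lower and 13 to 26 higher in WT, and 0 to 1 midpoint calls. Experiments 1 to 3 alone gave 1138 falls, 148 rises, 39 delayed, 14 slowing, 322 steady, line differences of 16 and 8, and 0 midpoint calls. Experiments 4 and 5 alone gave 1274 falls, 83 rises, 86 delayed, line differences of 1 and 15, and 72 midpoint calls; 783 falls were shared with experiments 1 to 3.

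Line differences, lower and higher in WT, were 1 and 6 without the block and 539 and 19 with background subtracted; lower ones were 358 under the stricter filter and 113 after quantile normalisation. Without the WT array at 120 min of experiment 1 they were 74 and 19, with 566 rises and 2 midpoint calls. Without the 3 WT arrays of narrowest spread 917 rose. Midpoint calls were 2 with all 48 arrays, without the intensity trend, under the stricter filter, with stable-gene centring and without the 3 narrow arrays, and 0 with background subtracted. Background subtraction reversed the contrast of the hours for Cited2 (-0.050, adjusted p = 0.922, limma) and Rnf19a (-0.21, adjusted p = 0.634). Over all alternatives 15 to 28 immediate-early factors, 7 to 13 NF-kappaB genes, 3 to 11 reported TTP targets and 0 to 2 ribosomal proteins fell, and 0 to 9 respiratory chain genes rose. The cause of these moves was not tested. The 10 arrays alone hold no first hour, and neither they nor the fit of all 48 arrays apply to the line difference. The number of arrays and the signal over background limit precision: a change near the floor cannot be measured.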

Other observations

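Factors that build ribosomes in the nucleolus contributed to the delayed class. The list was put together after their values were seen, so its counts are a description. Of 103 measured, 25 fell between 60 and 120 min in WT and 0 rose (limma; 33 and 6 at an unadjusted p under 0.05), 12 of them delayed, 3 steady and 0 slowing. Over all genes 11.9% fell and 1.2% were delayed. In the first hour 9 fell and 11 rose. Nmd3, the export adaptor of the large subunit, changed by -0.40 in the first hour and -0.87 in the second. Wdr43 and Nufip1 were level at 0.06 and 0.06 and then changed by -0.55 and -0.55. Rrs1 changed by -0.02 and -0.42, and Gnl3, nucleostemin, by -0.25 and -0.66. In KO 15 of the list fell. The median late change over the list was -0.04, and 78 of its members did not pass the threshold.

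Nuclear pore and import genes, also listed after their values were seen, had 9 of 30 falling and 3 delayed, against the same shares over all genes. The median late change over this list was -0.06, and 21 of its members did not pass the threshold. The genes named next are among those with the largest falls. Nup153, of the nuclear basket, changed by -0.27 in the first hour and -0.80 in the second, Nup62, of the central channel, by -0.37 and -0.71, and Pom121, which anchors the pore in the membrane, by -0.29 and -0.68. Kpna2, an importin alpha, changed by -0.60 late in WT and -0.77 in KO.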
